A study of Arabidopsis thaliana with 12 samples.

Results

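The salt response of an Arabidopsis thaliana line that carries the wheat gene TaF5H1 was described by comparing its 3 salt-treated libraries with its 3 untreated libraries. Of the 34218 genes in the deposited count table, the 17038 with a mean of at least 1 FPKM over all 12 libraries were tested. FPKM is a gene's read count divided by its exon length and by the library total, so levels in FPKM can be compared between genes. The line harboured pTaF5H1:TaF5H1, that is TaF5H1 (named for ferulate 5-hydroxylase, a cytochrome P450 of the lignin and sinapate pathway) behind its own wheat promoter, in a background whose comparison genotype was wild-type Col-0. Seedlings of both genotypes were grown normally for 2 weeks. They were then held for 6 h either in nutrient solution, here called untreated, or in 200 mM NaCl. The tissue is labelled leaves. Each of the 4 groups had 3 libraries, described as biological replicates. The number of independent transformants behind the line and the number of seedlings in a library were not given in the sources used here, so p-values measure the spread between these libraries.

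High salinity is felt by a leaf first as an osmotic stress and then through sodium entering its cells. Abscisic acid (ABA) builds up, its receptors bind and inhibit PP2C phosphatases, SnRK2 kinases are released, and transcription factors that bind ABA-responsive promoter elements switch on protective genes, among them those of late embryogenesis abundant (LEA) proteins. Growth and photosynthesis genes are commonly turned down in the same tissue, and salvage pathways such as autophagy and the breakdown of chlorophyll and amino acids are commonly turned up.

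Library totals of the line were between 17173618 and 21651124 counts, with the lowest in salt-treated replicate 1. That library stood apart. Over genes, its log2 levels correlated with those of salt-treated replicates 2 and 3 at r = 0.932 and 0.937, whereas replicates 2 and 3 correlated at 0.993 and the other pairs within a group at 0.973 to 0.991. Of the 2729 genes called up by at least 2-fold it was the weakest of the 3 salt-treated libraries in 65.5%, and of the 3733 called down by at least 2-fold it was the nearest to the untreated libraries in 72.5%. It showed the strongest change of the 3 in 27.9% of the genes called up and in 15.3% of those called down. A check was added after these values were seen. Leaving that library out, 62 genes separated the line from wild type by at least 2 log2 units both without and under salt. In 54 of them salt-treated replicate 1 lay between the line's other salt-treated libraries and salt-treated wild type, and in 48 it was nearer to wild type. These were 31 of the 35 genes higher in the line and 17 of the 27 lower in it. Choosing genes by a gap between the other libraries favours a left-out library falling inside that gap. No other library was left out for comparison, so these counts are a description. Below, "without replicate 1" means without that library, and many results are also given that way. The tissue label was checked against marker genes. All 12 leaf markers were called down in the salt-treated line, and their summed level was 22200 to 23300 FPKM untreated and 792 to 3810 under salt, with 3810 in replicate 1. Most of these markers are photosynthesis genes, such as RBCS2B, so their fall is not separate from the fall of photosynthesis genes given below. Root markers summed to 50.7 to 72.4 FPKM untreated and 43.5 to 64.5 under salt, with 7 of 18 at 0 in all libraries of the line, among them CASP1 and PLT1. In whole leaves, fewer cells of a type and less RNA per cell cannot be told apart.

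Below, a gene is called when its Benjamini-Hochberg adjusted p from edgeR's quasi-likelihood test over all 17038 genes was under 0.05. A log2 fold change is salt against untreated in the line, ± its standard error, with n = 3 in each group. In all, 31.4% of the genes tested were called up and 33.5% were called down, with a median log2 fold change of -0.05. Without salt-treated replicate 1 these shares were 34.7% and 36.5%. The scaling sets the balance. With library totals alone the median was -0.31, and of the called genes 34.9% were up, against 48.4% with the TMM scaling used here, 50.4% with DESeq2 and 34.1% with limma on log2(FPKM + 1). The median log2 fold change of each of 37 gene lists is set beside these shares in the plot of list members.

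**Figure D1:**
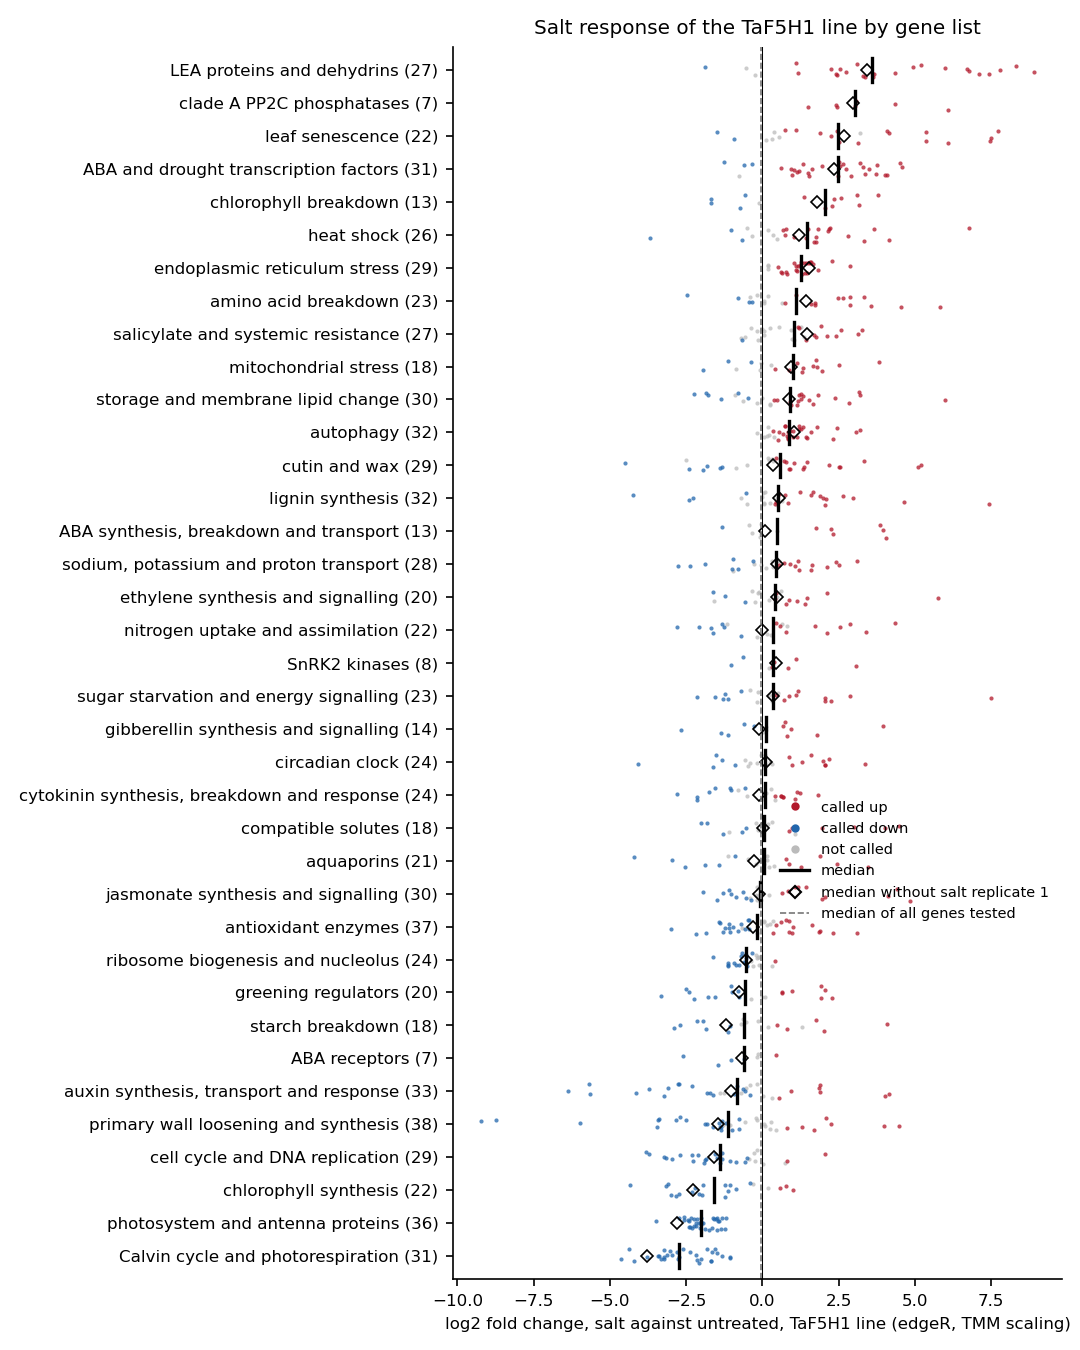
Log2 fold change of every tested member of 37 gene lists in the salt-treated against the untreated TaF5H1 line, with list size in brackets. Red points were called up, blue points were called down and grey points were not called. The black bar is the list median, the diamond is the median without salt-treated replicate 1 and the dashed line is the median of all genes tested (-0.05). All members of the 2 lowest lists, photosynthesis and the Calvin cycle, were called down, and the diamonds of both lie to the left of their bars.

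LEA genes had the highest median response of the 37 lists. Of 27 tested LEA and dehydrin genes, whose products are thought to shield proteins and membranes as cells dry, 24 rose and 1 fell, with a median log2 fold change of 3.6 against -0.05 for all genes tested. Without replicate 1 the counts were 24 and 2. As a share of all counts, the 31 LEA genes in the table held 0.711%, 0.837% and 0.791% in the untreated libraries and 7.18%, 5.26% and 5.33% in the salt-treated ones. LEA7 (AT1G52690, chromosome 1, 19619724 to 19621534) lay at 0.55, 1.03 and 0.44 FPKM untreated and at 261, 127 and 153 under salt (log2 fold change 8.32 ± 0.38, edgeR adjusted p = 2.8e-08). The groups did not overlap, and replicate 1 was the highest of the salt-treated libraries. KIN1, a small cold- and ABA-inducible protein gene, showed the same order, with 2001, 1055 and 1148 FPKM under salt from 2.45, 3.74 and 4.28 untreated. KIN1 lies beside its near-identical copy KIN2, and how reads that match both were counted is not given in the sources used here, so the split between them is uncertain. HVA22C, related to a barley ABA-induced gene, was the exception among called members, at 1.96, 3.19 and 3.41 FPKM untreated and 0.83, 0.51 and 0.6 under salt (log2 fold change -1.88 ± 0.38, edgeR adjusted p = 0.0011).

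The 250 bases before the annotated start of these genes are shown because ACGTG, the core of the ABA-responsive element, is the motif that the bZIP factors of this pathway are known to bind. Capitals mark each ACGTG on either strand. The core is part of the G-box CACGTG, so matches of the 2 motifs overlap. Sequences were read from the TAIR10.1 genome and are written 5′ to 3′ along the strand of the gene.
KIN1 chr5:5209467-5209716 (+): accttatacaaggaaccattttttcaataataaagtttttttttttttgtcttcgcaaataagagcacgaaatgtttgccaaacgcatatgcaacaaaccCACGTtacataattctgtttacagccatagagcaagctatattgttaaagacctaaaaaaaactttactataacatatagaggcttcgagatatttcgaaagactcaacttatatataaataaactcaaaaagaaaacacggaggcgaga
LEA7 chr1:19619474-19619723 (+): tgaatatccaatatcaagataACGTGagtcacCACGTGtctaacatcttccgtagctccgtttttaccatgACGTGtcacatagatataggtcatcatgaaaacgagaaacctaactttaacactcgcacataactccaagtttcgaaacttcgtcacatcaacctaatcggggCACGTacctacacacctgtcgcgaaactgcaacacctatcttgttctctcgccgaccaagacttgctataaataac
LTI65 chr5:21236771-21237020 (+): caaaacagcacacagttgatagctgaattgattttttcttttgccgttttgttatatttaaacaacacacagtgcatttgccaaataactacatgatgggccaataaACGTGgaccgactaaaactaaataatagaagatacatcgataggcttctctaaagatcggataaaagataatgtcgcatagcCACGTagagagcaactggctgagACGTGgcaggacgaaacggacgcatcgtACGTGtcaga

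The core occurred once before KIN1, 5 times before LEA7 and 4 times before LTI65 (RD29B, an LEA-like reporter of ABA signalling). The CACGTG before LEA7 holds the core on both strands and was counted on each. It was found in 23.7% of the 16899 promoters of that length, in 66.7% of those of the LEA list and of the circadian clock list, in 29.8% of those of genes called up and in 19.7% of those of genes called down. A match is a description of the letters and not a tested binding site.

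Upstream of these effectors, most receptor genes that changed fell and the phosphatase genes rose. Of 7 tested PYR/PYL receptor genes 1 rose and 4 fell, against 31.4% and 33.5% of all genes tested. With library totals alone 0 rose and 6 fell. PYL4 went from 12.2, 13 and 9.65 FPKM to 0.85, 1.8 and 2.1 (log2 fold change -2.61 ± 0.29, edgeR adjusted p = 1.2e-05), with no overlap. All 7 clade A PP2C phosphatase genes, which restrain the pathway, rose (median 3.04). SAG113 (AT5G59220, chromosome 5, 23894404 to 23896939), also known as HAI1, lay at 5.72, 7.56 and 12.1 FPKM untreated and at 463, 522 and 465 under salt (log2 fold change 6.10 ± 0.36, edgeR adjusted p = 1.2e-07), with replicate 1 at the level of its fellows. Among 8 tested SnRK2 kinase genes 5 rose and 2 fell, against the same shares of all genes tested, and 3 rose with library totals alone. SNRK2.6 (OST1), the guard cell kinase, was at 14.2, 12.9 and 14.5 FPKM untreated and 30.4, 21.8 and 22.3 under salt (log2 fold change 1.1 ± 0.15, edgeR adjusted p = 5.2e-05), while SNRK2.3 fell from 35.9, 37 and 32.3 to 16.9, 18.9 and 20.8 (log2 fold change -0.64 ± 0.13, edgeR adjusted p = 0.00092). Of 31 ABA and drought transcription factor genes 27 rose and 3 fell (median 2.48). AFP1, a repressor of the ABA factor ABI5, rose from 8.09, 9.89 and 11.9 to 233, 186 and 174 FPKM (log2 fold change 4.58 ± 0.19, edgeR adjusted p = 1.9e-08), and the homeodomain gene ATHB-5 fell by 1.26.

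In the compatible solute and aquaporin lists the shares, with all libraries, of genes called up and down lay near those over all genes tested (31.4% and 33.5%). Of 28 tested genes of sodium, potassium and proton transport 12 rose and 7 fell (median 0.46), or 10 and 9 with library totals alone. KUP6, a potassium efflux transporter of guard cells, lay at 4.01, 3.02 and 2.8 FPKM untreated and 16.8, 26.9 and 27.6 under salt (log2 fold change 3.11 ± 0.22, edgeR adjusted p = 5.3e-07). CBL10, the calcium sensor that activates the kinase of the SOS pathway in shoots, lay at 10.5, 13.9 and 11.5 and 2.67, 0.42 and 1.31 FPKM (log2 fold change -2.78 ± 0.44, edgeR adjusted p = 0.00018). Its groups did not overlap, and without replicate 1 the value was -3.55. AKT1, the inward potassium channel, fell from 5.13, 4.37 and 5.27 to 0.75, 0.87 and 0.79 FPKM (log2 fold change -2.36 ± 0.24, edgeR adjusted p = 6.4e-06). Among 18 tested genes of compatible solutes 6 rose and 5 fell, or 6 and 8 without replicate 1. The galactinol synthase gene GOLS1, at the entry to raffinose synthesis, was at 5.41, 5.8 and 3.45 FPKM untreated and 109.9, 45 and 43.4 under salt (log2 fold change 4.03 ± 0.51, edgeR adjusted p = 3.7e-05), with replicate 1 the highest, and its value was 3.44 without that library. MIPS1, which makes inositol phosphate for the same pathway, fell from 184, 143 and 213 to 78.4, 16 and 16.3 FPKM (log2 fold change -2.0 ± 0.52, edgeR adjusted p = 0.0051), or -3.22 without replicate 1. Of 21 tested aquaporin genes 6 rose and 6 fell, and without replicate 1 the counts were 5 and 10. PIP1-4 rose from 77.4, 76.2 and 87.7 to 1032, 576 and 602 FPKM (log2 fold change 3.47 ± 0.25, edgeR adjusted p = 5.3e-07), and PIP1-5 fell from 42.6, 54.9 and 75.7 to 14.4, 5.36 and 5.08 (log2 fold change -2.53 ± 0.37, edgeR adjusted p = 0.00012, -3.20 without replicate 1). Both belong to the plasma membrane family, whose members share long stretches of sequence.

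**Figure D2:**
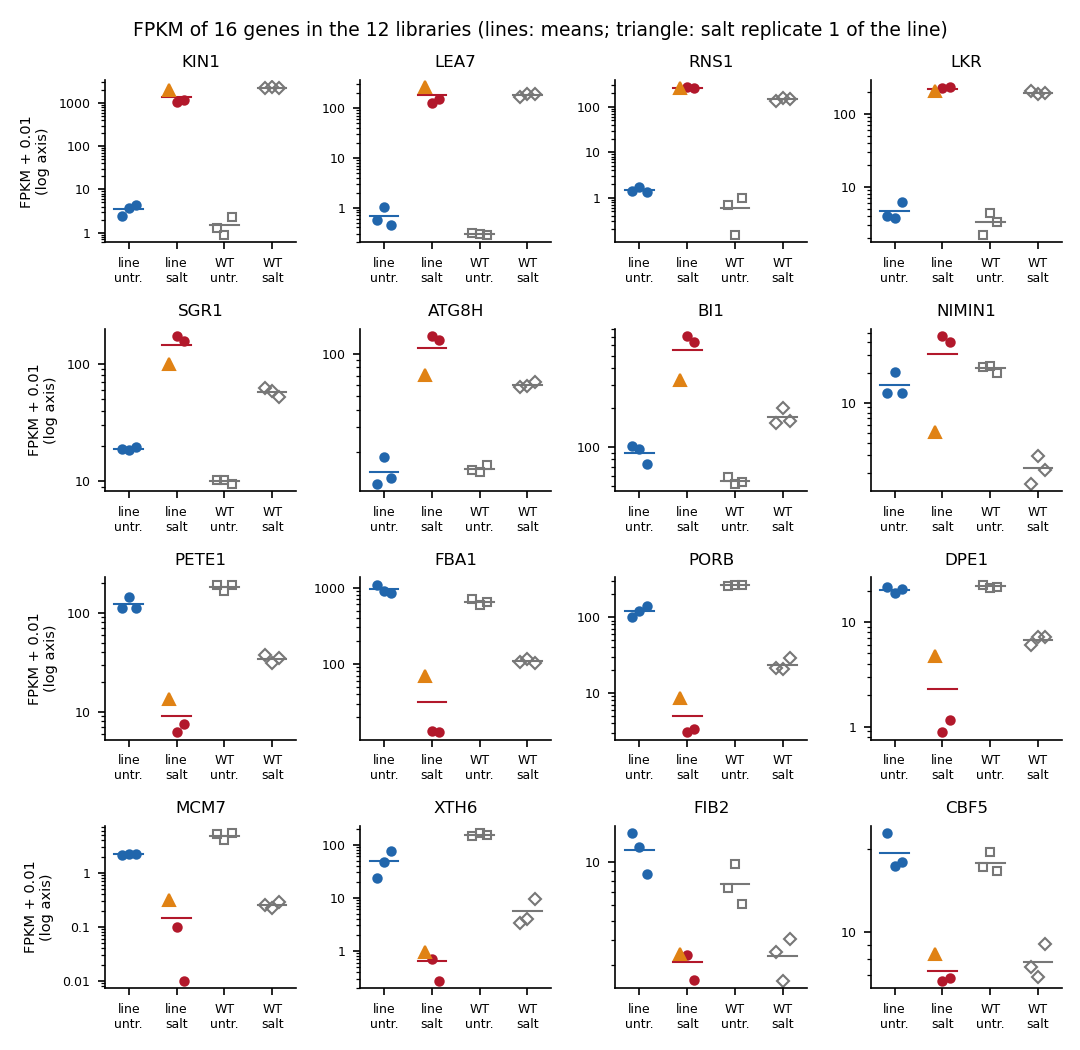
FPKM + 0.01 on a log axis of 16 genes in each of the 12 libraries. Points are libraries and lines are group means. Circles are the line (blue untreated, red salt), open squares and diamonds are untreated and salt-treated wild type (WT), and the orange triangle is salt-treated replicate 1 of the line. In the panels of FBA1, DPE1, BI1 and NIMIN1 the triangle stands well away from the 2 filled circles of the salt-treated line, whereas in those of RNS1 and LKR it lies beside them.

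Photosynthesis genes fell as a block. All 36 tested genes of the photosystems and their light-harvesting antennae were called down (median log2 fold change -2.01, range -3.49 to -1.19), as were all 31 tested genes of the Calvin cycle and photorespiration (median -2.73, range -4.63 to -1.05), and in every one of these 67 genes all salt-treated libraries were below all untreated ones in FPKM, as in 43.3% of all genes tested. Together the 68 genes of both lists in the table held 11%, 11.1% and 10.8% of all counts in the untreated libraries, 3.34% in salt-treated replicate 1, and 0.976% and 1.01% in replicates 2 and 3. The same share was 5.16% to 5.42% in salt-treated wild type, from 12.9% to 14.9% untreated. FBA1 (AT2G21330, chromosome 2, 9128122 to 9130619), a plastid aldolase, lay at 1093, 910.1 and 858 FPKM untreated and at 68.8, 13 and 12.6 under salt (log2 fold change -4.63 ± 0.61, edgeR adjusted p = 5e-05). SBPASE, the bisphosphatase that commits carbon to regenerating the CO2 acceptor, lay at 714, 610.0 and 653 and 134, 26.1 and 25.8 FPKM (log2 fold change -3.12 ± 0.56, edgeR adjusted p = 0.00046). PETE1, a plastocyanin that carries electrons to photosystem I, went from 112, 145 and 111 to 13.5, 6.17 and 7.54 (log2 fold change -3.49 ± 0.27, edgeR adjusted p = 9.1e-07), and the antenna gene LHCB5 from 623, 771 and 755 to 177, 41.5 and 42.7 (log2 fold change -2.75 ± 0.49, edgeR adjusted p = 0.00044). In all 4 genes replicate 1 was the salt-treated library nearest to the untreated ones. Without it the values were -5.95, -4.40, -3.90 and -3.82, and the list medians were -2.80 and -3.79. Counts of individual light-harvesting and Rubisco small subunit genes, such as RBCS2B (3578, 3626 and 3315 FPKM untreated and 336, 85.6 and 41.1 under salt), may be divided among near-identical copies.

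Chlorophyll genes moved on both sides of the pigment. Of 22 tested chlorophyll synthesis genes 17 fell and 3 rose (median -1.60, -2.28 without replicate 1). The 3 that rose act early, in steps shared with haem synthesis. HEMA1 and HEMA2 encode glutamyl-tRNA reductases, which open the pathway, and HEMB1 an aminolevulinate dehydratase. HEMA1 lay at 66.4, 68.5 and 76.4 FPKM untreated and 84.9, 78.7 and 99.2 under salt (log2 fold change 0.57 ± 0.12, edgeR adjusted p = 0.0017). Genes of later steps were among those that fell. PORB, which reduces protochlorophyllide in the light, lay at 100.4, 120.3 and 139.6 and 8.52, 3.01 and 3.28 (log2 fold change -4.33 ± 0.37, edgeR adjusted p = 2.1e-06, -4.99 without replicate 1), and the magnesium protoporphyrin methyltransferase gene CHLM at 97.5, 121 and 105 and 15.9, 7.93 and 5.85 (log2 fold change -3.17 ± 0.31, edgeR adjusted p = 5.5e-06). Of 13 chlorophyll breakdown genes 8 rose and 4 fell (median 2.07). SGR1 (AT4G22920, chromosome 4, 12016420 to 12018643), the magnesium-dechelatase that starts chlorophyll loss, rose from 18.7, 18.6 and 19.7 FPKM to 100.5, 173 and 158 (log2 fold change 3.18 ± 0.18, edgeR adjusted p = 9.7e-08), and SGR2 from 6.2, 6.32 and 6.79 to 40.2, 96.5 and 88.4 (log2 fold change 3.79 ± 0.28, edgeR adjusted p = 6.7e-07). CYP89A9, which acts on the colourless breakdown products, rose from 74, 63.9 and 65 to 477, 506 and 489 (log2 fold change 3.12 ± 0.16, edgeR adjusted p = 4.9e-08). The 4 that fell were SGRL, ACD2, HCAR and CLH1. CLH1, a chlorophyllase gene, lay at 244, 345 and 385 untreated and 145, 49.8 and 54.8 under salt (log2 fold change -1.68 ± 0.39, edgeR adjusted p = 0.0027, -2.37 without replicate 1). Among 20 greening regulators 7 rose and 10 fell, against 31.4% and 33.5% of all genes tested. PIF1, a phytochrome-interacting repressor of greening, fell from 10.3, 10.2 and 7.82 to 0.89, 0.85 and 0.63 FPKM (log2 fold change -3.31 ± 0.20, edgeR adjusted p = 1.5e-07), and HY5, an activator of light-responsive genes, rose from 3.03, 6.11 and 3.78 to 13.2, 16.7 and 15.5 (log2 fold change 2.07 ± 0.24, edgeR adjusted p = 1.6e-05). The plastid sigma factor genes moved both ways, with SIG5 at 2.28, SIG6 at -2.50 and SIG4 at -2.42 on the log2 scale, or 1.92, -3.31 and -3.44 without replicate 1.

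Starch and nitrogen genes were also called, with all libraries, in shares near those over all genes. Of 18 starch breakdown genes 5 rose and 7 fell (median -0.59), and without replicate 1 the counts were 5 and 11 (median -1.19). The amylase gene AMY1 rose from 8.41, 4.72 and 3.08 to 37.5, 96.5 and 97.6 FPKM (log2 fold change 4.08 ± 0.49, edgeR adjusted p = 2.4e-05), and BAM1, a stress-inducible plastid beta-amylase, from 75.5, 58.7 and 74.6 to 268, 212 and 225 (log2 fold change 2.02 ± 0.17, edgeR adjusted p = 1.6e-06). DPE1 (AT5G64860, chromosome 5, 25925173 to 25928879), which joins maltotriose inside the plastid, lay at 21.5, 18.8 and 20.6 untreated and 4.75, 0.87 and 1.14 under salt (log2 fold change -2.91 ± 0.48, edgeR adjusted p = 0.00026, -4.08 without replicate 1). The starch phosphorylase genes PHS1 and PHS2 had log2 fold changes of -2.7 and -2.13, or -3.30 and -3.16 without replicate 1. GWD1, the dikinase that primes starch for breakdown, was named after its values were seen. It lay at 94.1, 56.8 and 93 untreated and 147, 40.4 and 40.8 under salt, so replicate 1 was above and replicates 2 and 3 were below every untreated library, and it was not called.

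The amino acid breakdown list had similar medians in the 3 salt-treated libraries. Of 23 genes 13 rose and 4 fell (median 1.11), and the list medians over the untreated libraries were 1.31, 1.39 and 1.39 in the 3 salt-treated libraries. LKR (AT4G33150, chromosome 4, 15985174 to 15991633), the bifunctional enzyme that opens lysine breakdown, rose from 4.07, 3.8 and 6.17 to 205, 225 and 231 FPKM (log2 fold change 5.82 ± 0.29, edgeR adjusted p = 4.6e-08). MGL, which splits methionine, rose from 4.88, 7.46 and 7.89 to 82.6, 53.6 and 63.4 (log2 fold change 3.57 ± 0.23, edgeR adjusted p = 2.5e-07), and PYD4, an aminotransferase of pyrimidine breakdown, from 6.7, 11.2 and 16.6 to 250.3, 194 and 221 (log2 fold change 4.54 ± 0.35, edgeR adjusted p = 9.5e-07). GDH1, a glutamate dehydrogenase, went the other way, from 40.9, 46.3 and 41.4 to 5.57, 7.24 and 6.61 (log2 fold change -2.47 ± 0.12, edgeR adjusted p = 4e-08). Of 23 genes of sugar starvation and energy signalling 10 rose and 6 fell, against 31.4% and 33.5% of all genes tested. DIN2, a beta-glucosidase of dark-treated leaves, lay at 0.04, 0.08 and 0 FPKM untreated and 0.15, 10.07 and 10.5 under salt (log2 fold change 7.49 ± 1.45, edgeR adjusted p = 0.00079, 8.09 without replicate 1 and 8.38 without untreated replicate 2). Its salt-treated replicate 1 was close to the untreated level, far below its fellows. Of 22 tested nitrogen genes 9 rose and 7 fell (median 0.36), or 10 and 10 without replicate 1 (median -0.01). The nitrate transporter NRT1.5, which loads the xylem, rose from 3.62, 4.37 and 4.46 to 22.3, 41 and 47.8 (log2 fold change 3.41 ± 0.24, edgeR adjusted p = 5.1e-07), and NRT1.1, the dual-affinity transporter and nitrate sensor, fell from 57.8, 44.5 and 56.7 to 13.3, 8.22 and 9.42 (log2 fold change -2.09 ± 0.20, edgeR adjusted p = 4.2e-06). AMT1;2, an ammonium transporter, lay at 15.3, 12.9 and 15.5 and 4.38, 0.49 and 0.38 FPKM (log2 fold change -2.79 ± 0.66, edgeR adjusted p = 0.0029, -4.78 without replicate 1). Of 30 tested lipid genes 18 rose and 6 fell (median 0.92). CLO3, a caleosin of leaf lipid droplets, lay at 60.6, 79.3 and 94 FPKM untreated and 5099, 3678 and 3583 under salt (log2 fold change 5.99 ± 0.31, edgeR adjusted p = 6e-08). ACX1, which opens peroxisomal beta-oxidation, rose from 57.8, 52.8 and 67.7 to 489, 453 and 437 (log2 fold change 3.21 ± 0.18, edgeR adjusted p = 8e-08), and the sulfolipid synthesis gene SQD1 fell from 202, 155 and 149.7 to 38.8, 24.4 and 25.5 (log2 fold change -2.24 ± 0.21, edgeR adjusted p = 3.5e-06).

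Senescence and autophagy genes rose. Of 22 tested senescence genes 15 rose and 2 fell (median 2.49), or 17 and 1 without replicate 1, where WRKY22 was no longer called. RNS1 (AT2G02990, chromosome 2, 873506 to 874886), a secreted ribonuclease, lay at 1.41, 1.67 and 1.34 FPKM untreated and 254, 268 and 262 under salt (log2 fold change 7.72 ± 0.36, edgeR adjusted p = 3.1e-08), with the 3 salt-treated libraries close together. SWEET15 (SAG29), a sugar exporter of old leaves, rose from 0.7, 0.25 and 0.18 to 60.6, 56 and 55.2 (log2 fold change 7.48 ± 0.40, edgeR adjusted p = 3.3e-07, 8.26 without untreated replicate 1). WRKY53, a factor that promotes senescence, fell from 188, 150.2 and 118 to 36, 40.1 and 58.6 (log2 fold change -1.50 ± 0.31, edgeR adjusted p = 0.0012). Of 32 autophagy genes 26 rose and 0 fell (median 0.87). With library totals alone 21 rose, and without replicate 1 28 rose. ATG8H, a ubiquitin-like coat protein of autophagosomes, rose from 11.8, 18.4 and 12.9 to 70.0, 134 and 126 FPKM (log2 fold change 3.19 ± 0.23, edgeR adjusted p = 5.5e-07). ATG7 (AT5G45900, chromosome 5, 18615175 to 18618597), the E1-like enzyme that activates ATG8, rose from 5.86, 4.69 and 5.3 to 20.7, 45.4 and 46.2 (log2 fold change 3.08 ± 0.25, edgeR adjusted p = 1.3e-06). The groups of both genes did not overlap, and replicate 1 was again the lowest of the salt-treated libraries.

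Genes of the endoplasmic reticulum (ER) stress response rose as a group. Of 29 tested members 26 rose and 0 fell (median 1.28, and 1.54 without replicate 1). BI1 (AT5G47120, chromosome 5, 19135952 to 19138025), an ER membrane protein that restrains cell death, lay at 102, 95.5 and 73.5 FPKM untreated and 324, 709 and 636 under salt (log2 fold change 2.87 ± 0.26, edgeR adjusted p = 3.2e-06). BIP3, the stress-inducible luminal HSP70, lay at 16, 5.97 and 4.44 and 14.8, 35 and 30.0 (log2 fold change 1.84 ± 0.46, edgeR adjusted p = 0.0039). Here the groups overlapped, since untreated replicate 1 was above salt-treated replicate 1, and leaving out that untreated library gave 2.61. CRT1A, a calreticulin and calcium-binding chaperone, was named after its values were seen, and lay at 98.6, 83.9 and 86.9 and 93.6, 248 and 210.4 (log2 fold change 1.28 ± 0.26, edgeR adjusted p = 0.0012). In CRT1A salt-treated replicate 1 was within the range of the untreated libraries. By library, the list's median over the untreated mean was 0.52 in replicate 1, and 1.57 and 1.41 in replicates 2 and 3. It was 0.17 to 0.44 in salt-treated wild type.

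The promoters of these 3 genes are shown because each holds the ER stress response element CCAATNNNNNNNNNNCACG, which the bZIP factors of this response are known to bind. Capitals mark the fixed letters of each match on either strand (from TAIR10.1, 250 bases before the annotated start, 5′ to 3′ along the strand of the gene).
BI1 chr5:19135702-19135951 (+): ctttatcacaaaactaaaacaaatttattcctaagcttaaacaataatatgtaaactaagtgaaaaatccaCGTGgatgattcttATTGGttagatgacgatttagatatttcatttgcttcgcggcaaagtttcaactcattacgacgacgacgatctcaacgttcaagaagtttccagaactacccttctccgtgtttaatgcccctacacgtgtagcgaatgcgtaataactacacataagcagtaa
BIP3 chr1:2931851-2932100 (-): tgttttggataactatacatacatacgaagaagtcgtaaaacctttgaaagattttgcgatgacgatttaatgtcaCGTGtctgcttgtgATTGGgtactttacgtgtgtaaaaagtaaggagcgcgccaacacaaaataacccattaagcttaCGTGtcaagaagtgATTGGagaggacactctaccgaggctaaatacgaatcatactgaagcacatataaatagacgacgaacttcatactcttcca
CRT1A chr1:21092710-21092959 (-): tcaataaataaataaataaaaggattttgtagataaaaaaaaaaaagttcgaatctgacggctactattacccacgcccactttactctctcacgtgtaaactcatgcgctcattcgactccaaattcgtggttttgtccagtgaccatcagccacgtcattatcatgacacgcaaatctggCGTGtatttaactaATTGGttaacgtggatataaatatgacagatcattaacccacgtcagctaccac

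The match before BI1 began 179 bases before the start. The element was found in 27.6% of the 29 promoters of the ER stress list, in 0.994% of all 16899 promoters, in 1.53% of those of genes called up and in 0.725% of those of genes called down. These 3 genes were picked because they held a match.

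Other stress lists moved less evenly. Of 26 tested heat shock genes 18 rose and 3 fell (median 1.47). HSFA6B, an ABA-responsive heat shock factor gene, rose from 0.28, 1.25 and 0.22 to 77.6, 38.8 and 43 FPKM (log2 fold change 6.77 ± 0.54, edgeR adjusted p = 1.2e-06, 7.96 without untreated replicate 2), and HSFA7A fell from 6.06, 9.09 and 6.55 to 0.7, 0.4 and 0.28 (log2 fold change -3.70 ± 0.45, edgeR adjusted p = 2.7e-05). Of 18 tested genes of mitochondrial stress 11 rose and 3 fell, or 12 and 5 without replicate 1. AOX1D, an alternative oxidase that bypasses part of the respiratory chain, lay at 7.62, 4.87 and 4.81 untreated and 17.55, 94.6 and 95.4 under salt (log2 fold change 3.82 ± 0.55, edgeR adjusted p = 9.3e-05), with replicate 1 well below its fellows, while AOX1A lay at 62.7, 50.4 and 61 and 176, 204 and 184 (log2 fold change 1.96 ± 0.14, edgeR adjusted p = 4.1e-07), with all 3 alike. Of 37 tested antioxidant genes 13 rose and 17 fell, against 31.4% and 33.5% of all genes tested. GPX2, a glutathione peroxidase-like enzyme, rose from 69.4, 82.1 and 65.5 to 399.9, 606 and 570.5 (log2 fold change 3.12 ± 0.17, edgeR adjusted p = 7e-08), and FSD3, an iron superoxide dismutase of plastids, fell from 16.7, 16.4 and 15.2 to 2.76, 1.02 and 1.3 (log2 fold change -2.99 ± 0.31, edgeR adjusted p = 8.3e-06).

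Growth genes fell. Of 29 tested cell cycle and replication genes, out of 48 in the list, 21 fell and 2 rose (median -1.38). Many members were at low levels, and among those with a mean of at least 5 FPKM 6 were called down. The summed level of 5 markers of dividing cells was 5.58 to 7.70 FPKM untreated and 1.48 to 2.52 under salt, and its part in these results was not tested. MCM7, a subunit of the replicative helicase, lay at 2.17, 2.23 and 2.26 FPKM untreated and 0.31, 0.09 and 0 under salt (log2 fold change -3.83 ± 0.57, edgeR adjusted p = 0.00012, -5.23 without replicate 1). The 2 that rose, KRP6 and KRP1, encode inhibitors of cyclin-dependent kinases, and KRP6 lay at 9.09, 11.6 and 8.09 and 18.4, 44.2 and 37.7 (log2 fold change 2.05 ± 0.25, edgeR adjusted p = 2.9e-05). Of 24 ribosome biogenesis genes 15 fell and 1 rose (median -0.54), and the list's median was -0.41, -0.56 and -0.56 in the 3 salt-treated libraries. FIB2, a fibrillarin that methylates ribosomal RNA, fell from 13.9, 11.9 and 8.62 to 3.39, 3.35 and 2.5 (log2 fold change -1.63 ± 0.25, edgeR adjusted p = 0.00017), and the pseudouridine synthase gene CBF5 from 22.7, 17.3 and 17.9 to 8.32, 6.68 and 6.84 (log2 fold change -1.14 ± 0.16, edgeR adjusted p = 6.4e-05). The 1 that rose, the ribosomal protein gene RPL10A (adjusted p = 0.044 by edgeR), was not called with library totals alone, either limma fit, no expression filter, a mean of at least 5 FPKM, the libraries of the line alone, the replicate block or without 1 of 4 libraries.

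Of 38 tested primary wall genes 21 fell and 7 rose (median -1.12), or 26 and 7 without replicate 1. XTH6, a xyloglucan endotransglucosylase that remodels hemicellulose, lay at 23.1, 47.5 and 75.5 FPKM untreated and 0.95, 0.69 and 0.26 under salt (log2 fold change -5.99 ± 0.58, edgeR adjusted p = 5.2e-06). XTH31 held 56, 41 and 84 reads untreated and 0 in every salt-treated library, which is at least 56.9-fold lower against 3 reads over the group, counting error only. EXPA10, an expansin gene among the 7 that rose, lay at 0.79, 1.53 and 1.4 untreated and 55.6, 9.2 and 3.18 under salt (log2 fold change 4.48 ± 0.87, edgeR adjusted p = 0.00082). Most of that rise was in replicate 1, and without it the value was 2.6. Of 33 tested auxin genes 18 fell and 7 rose (median -0.84). The influx carrier gene LAX3 fell from 2.64, 2.07 and 3.88 to 0.08, 0.02 and 0.05 (log2 fold change -5.64 ± 0.78, edgeR adjusted p = 7.1e-05), and GH3.2 and GH3.6, which conjugate auxin to amino acids, rose from 0.64, 0.84 and 0.18 to 1.69, 12.6 and 10.7 (log2 fold change 4.15 ± 0.73, edgeR adjusted p = 0.00042) and from 1.98, 2.74 and 2.56 to 11.5, 48.6 and 39.4 (log2 fold change 4.02 ± 0.42, edgeR adjusted p = 9.2e-06). Both GH3 genes were far lower in replicate 1 than in its fellows. Among 14 tested gibberellin genes 6 rose and 5 fell, against 31.4% and 33.5% of all genes tested. GA2OX6, which inactivates gibberellin, rose from 16.3, 16.7 and 18.7 to 177, 231 and 262 (log2 fold change 3.95 ± 0.20, edgeR adjusted p = 5.7e-08), and GAI, a DELLA repressor of growth, fell from 17, 17.39 and 16.7 to 3.11, 2.2 and 1.42 (log2 fold change -2.66 ± 0.23, edgeR adjusted p = 2.3e-06). Among 24 tested cytokinin genes 9 rose and 8 fell, against the same shares of all genes tested. The receptor gene AHK2 fell from 5.61, 3.72 and 6.17 to 0.81, 0.5 and 0.54 (log2 fold change -2.81 ± 0.26, edgeR adjusted p = 3.8e-06), and the response regulator gene ARR2 rose from 4.64, 4.25 and 4.82 to 11.6, 14 and 14.8 (log2 fold change 1.81 ± 0.12, edgeR adjusted p = 3.6e-07).

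At the leaf surface, 15 of 29 tested cutin and wax genes rose and 6 fell (median 0.57), against 31.4% and 33.5% of all genes tested. By library the list's median was 1.19 in replicate 1 and 0.35 and 0.29 in replicates 2 and 3. CER1, needed for wax alkanes, lay at 0.52, 0.93 and 1.27 FPKM untreated and 50.8, 15 and 11.5 under salt (log2 fold change 5.11 ± 0.58, edgeR adjusted p = 1.7e-05, 4.13 without replicate 1), and WSD1, a wax ester synthase gene, at 1.18, 1.74 and 1.36 and 25.6, 4.24 and 5.54 (log2 fold change 3.33 ± 0.62, edgeR adjusted p = 0.00059, 2.04 without replicate 1). In both genes replicate 1 was the highest library. KCS12, a fatty acid elongase gene, fell from 16.4, 19.6 and 31.1 to 0.43, 1.11 and 0.89 (log2 fold change -4.51 ± 0.39, edgeR adjusted p = 2e-06). In the lignin list, 16 of 32 tested genes rose and 4 fell (median 0.50), against the same shares of all genes tested. The summed level of 8 xylem markers was 12.5 to 24 FPKM untreated and 4.16 to 13.8 under salt, with 0 called up and 2 called down, and its part in this result was not tested. CAD8, annotated as a cinnamyl alcohol dehydrogenase, rose from 0.91, 2.2 and 0.71 to 73.1, 263 and 227 (log2 fold change 7.44 ± 0.56, edgeR adjusted p = 7e-07, 8.09 without untreated replicate 2), and 4CL5, which activates hydroxycinnamates, from 8.24, 6.9 and 8.57 to 26.4, 66.5 and 63.9 (log2 fold change 2.97 ± 0.31, edgeR adjusted p = 7.5e-06).

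Salicylate genes differed between the salt-treated libraries. Of 27 tested salicylate genes 11 rose and 1 fell, against 31.4% and 33.5% of all genes tested. Without replicate 1 the counts were 19 and 1, against 34.7% and 36.5% of all genes tested. The list's median over the untreated mean was -0.42 in replicate 1, 1.69 and 1.42 in replicates 2 and 3, and -0.34 to -0.12 in salt-treated wild type. FMO1, which makes the mobile signal N-hydroxypipecolate, lay at 3.62, 2.11 and 0.57 FPKM untreated and 3.65, 21.8 and 26.4 under salt (log2 fold change 3.28 ± 0.72, edgeR adjusted p = 0.0019, 3.93 without untreated replicate 1). Replicate 1 was at the level of the highest untreated library. WRKY70, named after its values were seen, lay at 208, 230.0 and 149 untreated and 99, 434 and 409 under salt, with replicate 1 below and replicates 2 and 3 above every untreated library, and it was not called. Of 30 tested jasmonate genes 10 rose and 9 fell, against 31.4% and 33.5% of all genes tested. VSP2, a storage protein and marker of the pathway, rose from 72.7, 121 and 135 to 2809, 855 and 986 (log2 fold change 4.11 ± 0.52, edgeR adjusted p = 3.5e-05, 3.34 without replicate 1), and CYP94B3, which oxidises the active hormone, from 27.2, 13.2 and 16.9 to 313, 336 and 387 (log2 fold change 4.43 ± 0.33, edgeR adjusted p = 7.4e-07). MYC4, an activator of the pathway, fell from 25.2, 20 and 23.8 to 7.5, 3.46 and 3.84 (log2 fold change -1.95 ± 0.26, edgeR adjusted p = 4.9e-05). Of 20 tested ethylene genes 9 rose and 3 fell, against 31.4% and 33.5% of all genes tested. The ethylene counts were 6 and 7 under library totals alone. ACS2, an enzyme of the rate-limiting step of ethylene synthesis, rose from 0.86, 0.52 and 0.39 to 22.2, 29 and 30.5 (log2 fold change 5.77 ± 0.35, edgeR adjusted p = 1.5e-07).

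**Figure D3:**
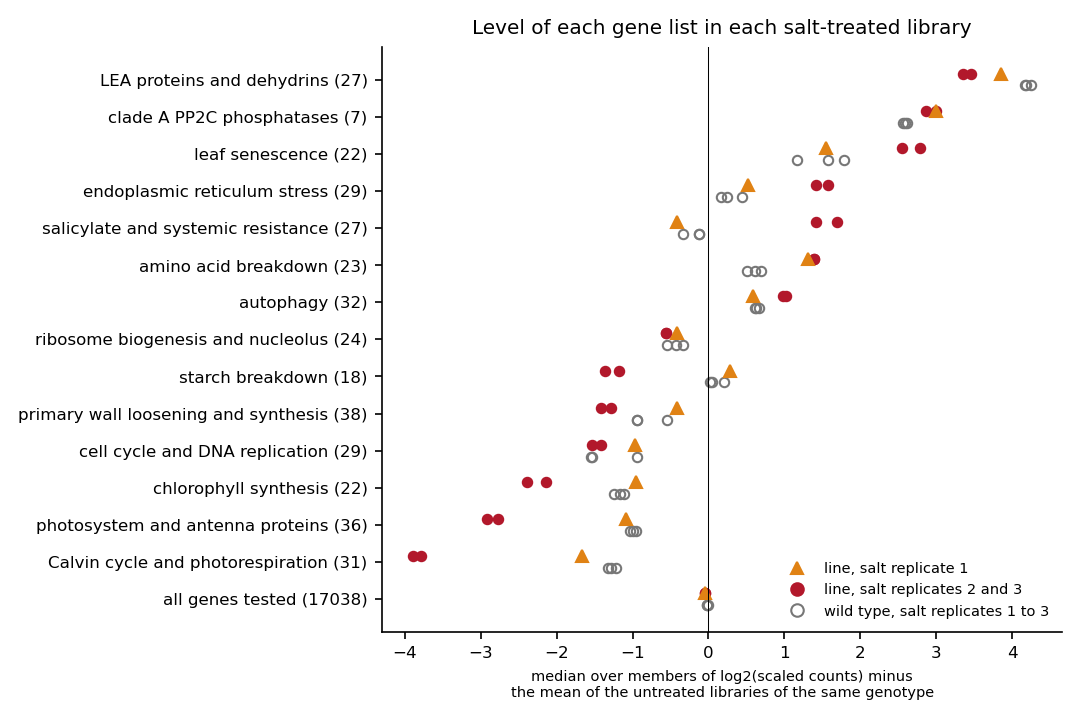
Median over list members of the log2 scaled count in each salt-treated library minus the mean of the 3 untreated libraries of the same genotype. The triangle is salt-treated replicate 1 of the line, filled circles are its replicates 2 and 3 and open circles are the 3 salt-treated wild-type libraries. For photosystem genes replicate 1 lies at -1.09, beside wild type at -1.04 to -0.96, and replicates 2 and 3 lie at -2.92 and -2.77. For PP2C genes the triangle lies among the filled circles.

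Of 24 tested circadian clock genes 9 rose and 5 fell, or 9 and 9 with library totals alone and 11 and 8 without replicate 1. Over all genes tested 31.4% were called up and 33.5% down, or 34.7% and 36.5% without replicate 1. CHE, a repressor of the morning gene CCA1, fell from 10.4, 17.9 and 17.8 to 1.28, 0.58 and 0.41 FPKM (log2 fold change -4.09 ± 0.38, edgeR adjusted p = 3.9e-06), and CCA1 rose from 2.09, 2.02 and 1.27 to 8.73, 4.26 and 5.79 (log2 fold change 2.07 ± 0.32, edgeR adjusted p = 0.00015). In the ABA metabolism list 6 of 13 tested genes rose and 1 fell (median 0.47), or 6 and 2 without replicate 1 (median 0.08). By library the list's median was 0.89 in replicate 1, and -0.03 and 0.17 in replicates 2 and 3. The ABA synthesis gene NCED3 rose from 5.28, 9.21 and 9.37 FPKM to 103.3, 103.6 and 104.5 (log2 fold change 3.97 ± 0.31, edgeR adjusted p = 9.1e-07). CYP707A4, which breaks ABA down, rose from 0.71, 1.1 and 0.37 to 7.99, 7.92 and 10.9 (log2 fold change 3.87 ± 0.36, edgeR adjusted p = 3.6e-06).

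The strongest changes over all genes included several outside these lists. AT5G42510, which the table names DIR1, is annotated as a dirigent protein (a family that guides the coupling of monolignols). It had 0 reads in the 3 untreated libraries and 228, 188 and 198 under salt, at least 217-fold higher against 3 reads over the group. MAN1, an endo-mannanase of the wall, lay at 0.26, 0.65 and 0.03 FPKM untreated and 34.1, 103 and 93.6 under salt (log2 fold change 8.16 ± 0.65, edgeR adjusted p = 4.3e-06, 9.23 without untreated replicate 2). PHO1-H10, of a family of phosphate exporters, rose from 0.25, 0.21 and 0.53 to 58.5, 62.7 and 51.7 (log2 fold change 7.70 ± 0.45, edgeR adjusted p = 1.2e-07), and RAP2-6, an ERF-family factor, from 0.76, 2.45 and 1.63 to 303, 223 and 221 (log2 fold change 7.54 ± 0.62, edgeR adjusted p = 1.4e-06). Among the genes that fell farthest, ETC2, a repressor of trichome formation, had 63, 109 and 86 reads untreated and 0 in every salt-treated library, at least 81.0-fold lower. ERF094 (ORA59), an activator of ethylene and jasmonate defence genes, fell from 50.1, 49.2 and 32.3 to 0.05, 0.21 and 0.66 (log2 fold change -6.88 ± 0.50, edgeR adjusted p = 5.5e-07, -7.95 without salt-treated replicate 3). The nitrate transporter gene NPF1.2 fell from 16.4, 12.9 and 24.3 to 0.54, 0.25 and 0.07 (log2 fold change -5.70 ± 0.58, edgeR adjusted p = 6.9e-06, -6.44 without replicate 1). PUP7, a purine permease gene, fell from 43.1, 41.6 and 46.4 to 1.69, 0.16 and 0.39 (log2 fold change -5.64 ± 0.56, edgeR adjusted p = 6.1e-06, -7.08 without replicate 1). It lies next to the purine permease gene PUP22 and near other family members, and reads they share may be divided in an unknown way.

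**Figure D4:**
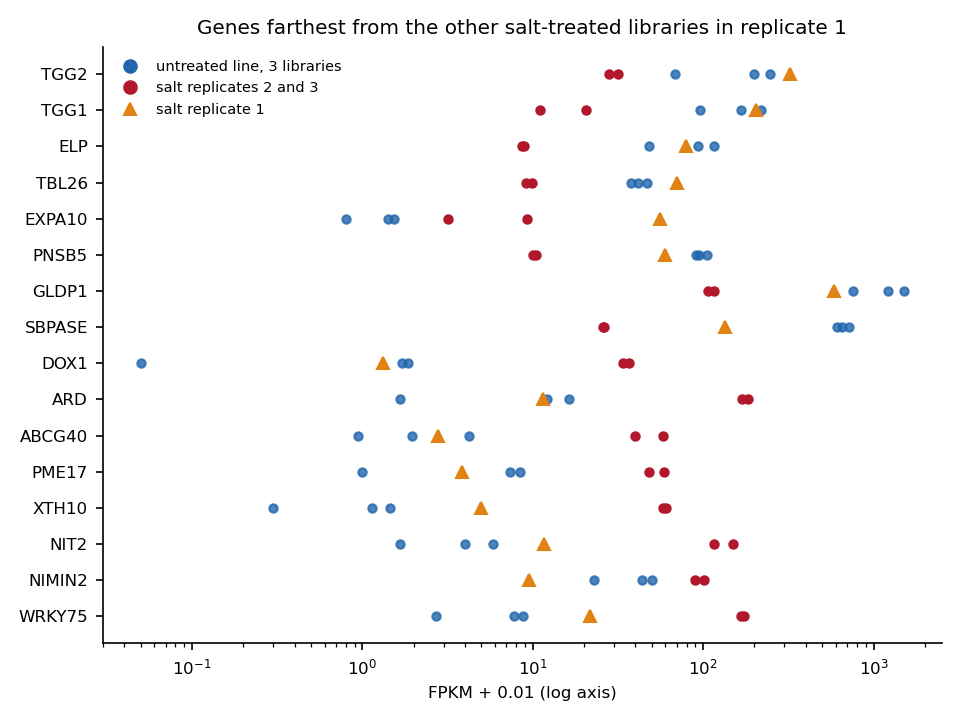
FPKM + 0.01 on a log axis in the libraries of the line for the genes in which salt-treated replicate 1 (triangle) was farthest above (top 8) or below (bottom 8) both other salt-treated libraries (red), with the 3 untreated libraries in blue. In 6 of the 16 genes (TGG1, ELP, DOX1, ARD, ABCG40 and PME17) the triangle is within the range of the blue points.

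The genes that set salt-treated replicate 1 farthest from its fellows were chosen for that distance, so their values are a description. TGG2, a myrosinase of guard and myrosin cells that hydrolyses glucosinolates, lay at 324, 28.2 and 31.8 FPKM in the salt-treated libraries and at 68.4, 199 and 246 untreated, and its partner TGG1 at 204, 11.1 and 20.6 and 95.3, 166 and 219.5. Without replicate 1 their log2 fold changes went from -0.12 to -2.25 and from -0.73 to -3.08. GLDP1, a subunit of glycine decarboxylase with the near-identical copy GLDP2, lay at 586, 107 and 116 under salt and 1507, 758 and 1210.1 untreated. Far below the others in replicate 1 were DOX1, a fatty acid dioxygenase gene of defence, at 1.32, 36.5 and 33.7, and WRKY75, a senescence and phosphate starvation factor gene, at 21.8, 167 and 174. The untreated libraries held 1.69, 1.85 and 0.04 FPKM of DOX1 and 7.76, 8.81 and 2.71 of WRKY75. In all 8 genes in which replicate 1 was below its fellows, untreated replicate 3 was the lowest untreated library.

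The difference in salt response (the log2 fold change of the line less that in wild type) was called for 1001 genes (5.88% of those tested), of which 498 (2.92%) were higher and 503 (2.95%) lower in the line. Without replicate 1 of the salt-treated line it was called for 6270 (36.8%), with 2345 (13.8%) higher and 3925 (23.0%) lower. Leaving out any other library instead left between 59 and 366 higher and between 70 and 342 lower. Counts within lists changed with that library too. Of the photosystem and Calvin cycle genes 0 were called with it, and without it 35 of 36 and 31 of 31 were called lower in the line. Of 29 ER stress genes 3 were called higher with it and 19 without it, of 32 autophagy genes 4 and 15, of 27 salicylate genes 5 and 14, and of 18 starch breakdown genes 0 and 14 were called lower. LEA genes were called in 0 cases with it and lower in 16 of 27 without it.

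With all libraries, the 3 ER stress genes called higher were CRT1A, SDF2 and DERLIN-1, and the 4 autophagy genes were ATG7, ATG9, ATG1B and ATG2, all named after their values were seen except ATG7. SDF2, a luminal cofactor of chaperones, lay at 47.6, 48.6 and 41.2 FPKM in the untreated and 57.8, 118 and 104 in the salt-treated line. For ATG7 the difference was 1.74 (edgeR adjusted p = 0.02). In NIMIN1 (AT1G02450, chromosome 1, 497917 to 498539), which binds the salicylate receptor NPR1, the line had 12.6, 20.3 and 12.4 FPKM untreated and 5.05, 46.4 and 40.9 under salt, and wild type had 23, 23.48 and 19.9 and 1.55, 2.96 and 2.15 (log2 difference 4.38 ± 0.83, edgeR adjusted p = 0.02). Replicate 1 was below and replicates 2 and 3 were above all untreated libraries of the line, and the call was lost without salt-treated wild-type replicate 1 (4.18). GH3.6 rose in all salt-treated libraries of the line, whereas wild type held 3.91, 5.86 and 4.78 untreated and 4.24, 5.24 and 4.82 under salt (log2 difference 3.84 ± 0.56, edgeR adjusted p = 0.0088). The glutaredoxin genes GRXS7 and GRXS3, members of a tandem cluster of near-identical copies, differed by 3.52 and 3.35 (edgeR adjusted p = 0.0065 and 0.0076). The line's untreated levels of GRXS3, at 0.71, 0.71 and 2.41, were below those of wild type, at 16.7, 14.6 and 16.9. Under salt the line held 16.6, 22.3 and 27.6 and wild type 26.3, 30.1 and 28.5, so the genotypes lay farther apart without salt. Without untreated replicate 3 of the line the value for GRXS3 was 4.19. Also higher were the responses of ORP1A, an oxysterol-binding protein gene (3.96), GT-3A, a trihelix factor gene (3.26), and NANA, an aspartic protease gene (3.23). ORP1A, not called in the line itself, lay at 4.07, 2.83 and 3.28 FPKM untreated and 0.51, 3.16 and 3.23 under salt, against 4.17, 5.6 and 6.38 and 0.24, 0.28 and 0.21 in wild type, and its call was lost without salt-treated wild-type replicate 1 (3.94). The call of GT-3A was lost when any 1 of 9 libraries was left out, at 2.86 to 3.42.

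Among genes with a lower response in the line, NATA1, an acetyltransferase that makes the defence compound N-acetylornithine, lay at 10.6, 11.1 and 10.5 FPKM in the untreated and 919, 634 and 725 in the salt-treated line, and at 2.14, 0.99 and 1.82 and 1276, 1019 and 1041 in wild type (log2 difference -3.18 ± 0.35, edgeR adjusted p = 0.0038). It rose in both genotypes. MYB90, an activator of anthocyanin genes, lay at 11.4, 12.7 and 5.14 and 63.2, 84.1 and 118 in the line and at 0, 0 and 0 and 13.9, 13.1 and 10.4 in wild type, where the untreated libraries are listed at 0. PI4KG3, of a kinase-like family, had 28.6, 20.6 and 25.7 and 27.1, 53.9 and 49.4 in the line and 0.15, 0.08 and 0.06 and 3.31, 23.2 and 7.74 in wild type (log2 difference -5.98 ± 0.99, edgeR adjusted p = 0.012, -4.90 without salt-treated wild-type replicate 2). HSP17.4, a small heat shock protein gene with similar copies, differed by -3.68 (edgeR adjusted p = 0.017, lost without untreated wild-type replicate 2 or 3, at -3.33 and -3.86), and the phloem lectin-like gene PP2A5 by -3.34 (-5.58 without replicate 1). JAZ13, a jasmonate repressor gene, differed by -3.17, and PER64, a peroxidase gene, by -9.38 (-12.75 without replicate 1). The calls of PP2A5 and PER64 were lost when any library other than salt-treated replicate 1 of the line was left out, and that of JAZ13 without any library but untreated replicate 1 or salt-treated replicate 1 of the line, with its value at -2.53 without salt-treated wild-type replicate 3. PER64 rested on wild-type levels of 0.51, 2.19 and 23.8 FPKM under salt, of which 1 library made up nearly all, and without that library its value was -6.74. BHLH100, an iron-deficiency factor gene, differed the other way, by 10.21, from log2 fold changes of 0.37 in the line and -9.84 in wild type. It was at most 0.35 FPKM in any library of the line and was listed at 0 in salt-treated wild type. Its call was lost without any library other than salt-treated replicate 2 or 3 of the line. Its value was 5.71 without replicate 1 (edgeR adjusted p = 1.0).

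**Figure D5:**
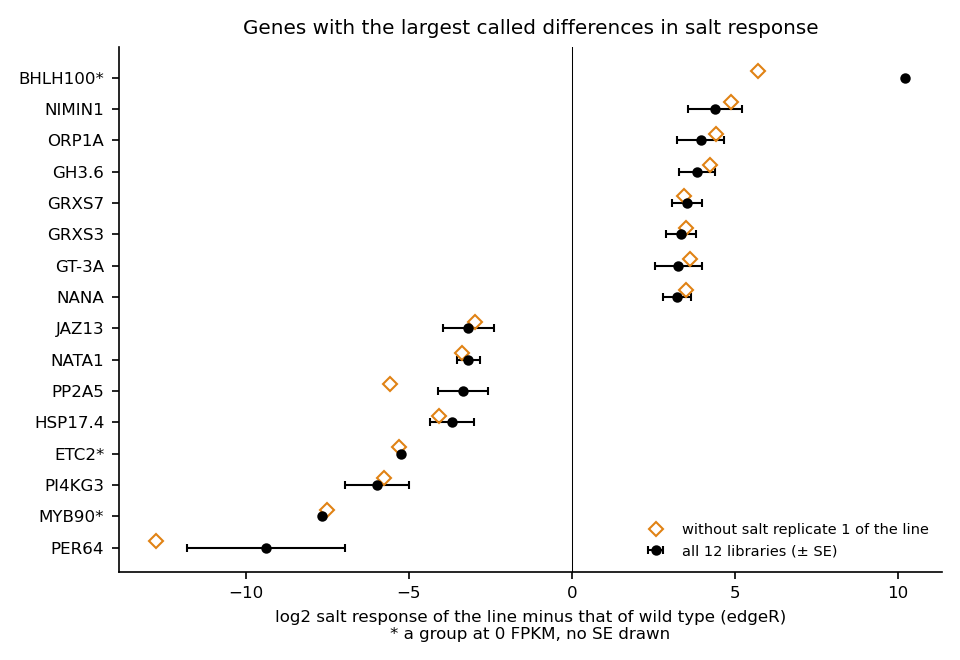
Log2 fold change under salt in the line less that in wild type for the 16 named genes with the highest and lowest called differences, with all 12 libraries (black, ± SE) and without salt-treated replicate 1 of the line (orange diamonds). A star marks genes with a group at 0 FPKM, for which no error is drawn. The diamonds lie on the same side of 0 as the black points in all 16, and those of BHLH100, PER64 and PP2A5 lie farthest from them.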

How the data were processed

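The authors deposited 1 table with raw counts and FPKM per gene for 12 libraries. Reads were demultiplexed with bcl2fastq 2.17.1.14, trimmed with cutadapt 1.9.1 and aligned with HISAT2 2.0.1 to TAIR10, per the submitters' processing notes. The counting tool, its treatment of reads with several matches and whether it used strand were not given in the sources used here, so near-identical copies and overlapping genes may share counts. Rows of structural RNA held at most 0.00629% of counts in any library. The deposited FPKM values matched FPKM recalculated from the counts within 0.005 and were used for the expression filter and to show levels.

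Genes whose FPKM averaged 1 or more over the 12 libraries were tested on the deposited counts with edgeR 4.0.16 in R 4.3.3: TMM scaling, a model of the 4 groups fitted to all 12 libraries, the quasi-likelihood test and Benjamini-Hochberg adjustment, called under 0.05. The standard error is the log2 fold change divided by the square root of F. The script was tested on simulated data. Lower bounds of fold changes set a group without reads at 3 counts over its 3 libraries. Promoters were read from TAIR10.1, after 32520 of 32548 shared loci had the same start and end as in the table. For 139 tested genes no promoter was read. Alternatives were library totals alone, DESeq2 1.42.0, limma 3.58.1 on log2(FPKM + 1) and log2(FPKM + 0.1), no expression filter, a mean of at least 5 FPKM, the 6 libraries of the line alone, a replicate block and leaving out each library.

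Members and the 37 lists (1042 of 1067 listed symbols matched) were chosen with earlier results of these data known, and no list has a test of its own. Named were the genes with the highest and lowest called changes over all genes, in each list, in the difference between genotypes, and in the distance of salt-treated replicate 1 from its fellows. The comparison of that library with wild type over 62 genes was added after its values were seen.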

Additional observations from a re-analysis of the deposited data

Results flagged for a closer look

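A test of the difference in log2 salt response between the line and wild type (edgeR's quasi-likelihood test, all 12 libraries, n = 3 in each group) was passed by 33 of the named genes, with adjusted p between 0.0038 and 0.048. For 16 of them, named for the largest called differences, passing was fixed in advance by that choice. Groups of 3 are too small for a test of outlying samples. Among the genes named for the largest differences, the line's response was higher in BHLH100 (10.21), NIMIN1 (4.38), ORP1A (3.96), GH3.6 (3.84), GRXS7 (3.52), GRXS3 (3.35), GT-3A (3.26) and NANA (3.23). It was lower in PER64 (-9.38), MYB90 (-7.66), PI4KG3 (-5.98), ETC2 (-5.25), HSP17.4 (-3.68), PP2A5 (-3.34), NATA1 (-3.18) and JAZ13 (-3.17). For BHLH100 and ORP1A the line's own log2 fold changes were 0.37 and -0.31, against -9.84 and -4.27 in wild type. BHLH100, PER64, MYB90 and ETC2 have a group at or near 0, where the fitted size depends on the prior count. The call of ETC2 was lost when any 1 of 7 libraries was left out (salt-treated replicates 2 and 3 of the line, all 3 untreated and salt-treated replicates 1 and 2 of wild type).

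Among genes named for their salt response in the line, the wax gene CER1 (3.08, or 2.07 without salt-treated replicate 1 of the line), the cytokinin response gene ARR5 (2.18), the expansin-like gene EXLA1 (1.89), ATG7 (1.74) and HEMB1 (1.05) had a higher response than in wild type. CER1 lay at 0.52, 0.93 and 1.27 FPKM untreated and 50.8, 15 and 11.5 under salt in the line, below wild type both without salt (23, 17.8 and 23.7) and under it (72.1, 63.5 and 95.6). Lower were those of the homeodomain gene HAT3 (-2.44), the lignin genes PAL3 (-2.11) and MYB4 (-1.61), FSD3 (-1.90), PIF1 (-1.53), AKT1 (-1.33), AHK2 (-1.32), SQD1 (-1.27), PUP22 (-1.26), the jasmonate synthesis gene OPCL1 (-1.03), SNRK2.3 (-0.93) and the aminotransferase gene AGT2 (-0.88). AKT1 averaged 4.92 FPKM in the untreated line and 1.93 in untreated wild type, but 0.803 and 0.823 under salt. SNRK2.3 averaged 35.1 and 21.5 untreated and 18.9 and 23.0 under salt, line before wild type. ARR5 and HEMB1 started lower in the line, at 2.89 against 9.35 and 37.5 against 68.9. HAT3 started alike, at 12.5 and 13.2, and held 1, 2 and 2 reads in the salt-treated line.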

How the results depend on the processing

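The salt response of the line kept its counts within 1.5 times under every alternative, with 3767 to 5909 genes called up and 4323 to 7405 called down. Of 3040 values of the 220 genes named for it, 46 lost the call, 9 gained it and 0 reversed.

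The difference between genotypes did not keep its counts. The number called higher in the line was 498, and it was 1328 with DESeq2, 283 with limma on log2(FPKM + 0.1) and 305 with the replicate block. The number called lower was 503, and it was 837 with library totals alone, 1201 with DESeq2 and 1040 with limma on log2(FPKM + 1). Genes shared between these counts were not counted. Leaving out 1 library gave 59 to 2345 higher and 70 to 3925 lower, with the lowest counts without salt-treated wild-type replicate 1 and the highest without salt-treated replicate 1 of the line. Of 298 values of its 16 named genes, 70 lost the call. The cause was not tested.

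The share of genes called up by at least 2-fold in which salt-treated replicate 1 was the weakest (65.5%) was 63.5% with limma on log2(FPKM + 0.1). The corresponding share of genes called down (72.5%) was 70.0% with library totals, 70.4% with limma on log2(FPKM + 0.1), 66.6% with no expression filter and 77.4% at a mean of at least 5 FPKM.

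The deviations of samples with the same replicate number correlated at r between -0.26 and 0.24 over 18 pairs, 4 of them over 0.1. Whether the numbers pair the samples was not tested. With the replicate block 5200 genes were called up and 5650 down. The 3 libraries of a group limit the precision of every value.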
